A study of Mus musculus with 8 samples.

Results

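The Hes and Hey genes encode transcriptional repressors that Notch signalling switches on in many tissues, and 9 of them were measured here: Hey1, Hey2, Heyl, Hes1, Hes2, Hes3, Hes5, Hes6 and Hes7. The members were every array probe whose gene name in the deposited files was one of these 9 symbols, control spots left out, which gave 12 probes of the 41174 on the array. Heyl, Hes2 and Hes6 had 2 probes each. The study grew MC3T3-E1 cells, an established mouse osteoblast line from skull bone, together with tumour cells, and asked which osteoblast transcripts respond to tumour-derived Jagged1 and to Notch inhibition. The 4 groups were co-cultures with vector control tumour cells in DMSO, with Jagged1-overexpressing tumour cells in DMSO, with vector control tumour cells in MRK-003 and with Jagged1-overexpressing tumour cells in MRK-003. MRK-003 inhibits gamma-secretase, the protease complex that frees the signalling part of Notch receptors, and DMSO is its solvent. Each group had 2 biological replicates, 1 array each, and all cultures were kept in alpha MEM with fetal bovine serum. The sources used here do not name the tumour line or its species, nor the dose and length of treatment or how osteoblast RNA was parted from tumour RNA.

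When a Notch receptor meets a ligand such as Jagged1 on a neighbouring cell, gamma-secretase releases its intracellular part, which enters the nucleus and joins the DNA-binding protein Rbpj and a Mastermind coactivator. Genes with Rbpj sites near their start, several Hes and Hey genes among them, are then transcribed. Their products share a basic helix-loop-helix domain and an Orange domain, and they bind DNA and recruit corepressors. Hes1, Hes5, Hes7, Hey1, Hey2 and Heyl are known as Notch targets, whereas Hes6 is known to oppose Hes1 and is often driven by other signals. In osteoblasts, Hes1 and Hey1 are known to bind or restrain Runx2, the master regulator of bone-forming cells.

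RefSeq promoter windows on GRCm38.p6 were given for 4 of the 9 genes, Hes5, Hes6, Hes7 and Hey2, and not for Hey1, Heyl, Hes1, Hes2 and Hes3. The 250 bases before the start were searched for TGGGAA, the core of the Rbpj site, on both strands (TTCCCA on the other). The 3 windows below are shown because they hold it, and they run from 250 bases before the start up to the start in the direction of transcription. Capitals mark the core on either strand. They lie at chr4:154960673-154960922 on the + strand (Hes5), chr10:30842784-30843033 on the - strand (Hey2) and chr11:69120203-69120452 on the + strand (Hes7).
Hes5: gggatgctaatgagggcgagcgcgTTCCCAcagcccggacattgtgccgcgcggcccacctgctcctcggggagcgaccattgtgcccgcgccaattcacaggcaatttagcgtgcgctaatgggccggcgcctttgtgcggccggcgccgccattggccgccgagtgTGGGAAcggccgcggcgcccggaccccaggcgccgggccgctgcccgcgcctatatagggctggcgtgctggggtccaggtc
Hey2: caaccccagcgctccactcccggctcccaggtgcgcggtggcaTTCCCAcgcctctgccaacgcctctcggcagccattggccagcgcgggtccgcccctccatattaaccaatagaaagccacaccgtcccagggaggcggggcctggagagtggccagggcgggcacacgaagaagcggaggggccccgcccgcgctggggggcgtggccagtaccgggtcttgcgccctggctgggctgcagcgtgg
Hes7: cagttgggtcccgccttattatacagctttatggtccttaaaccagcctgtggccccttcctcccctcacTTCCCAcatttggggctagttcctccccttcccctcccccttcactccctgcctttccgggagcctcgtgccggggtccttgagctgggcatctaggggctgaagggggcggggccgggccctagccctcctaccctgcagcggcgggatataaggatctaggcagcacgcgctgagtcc
Hes5 held the core at 2 places, 226 to 221 and 82 to 77 bases before the start and on opposite strands. Hey2 held 1 core at 207 to 202 bases and Hes7 held 1 at 180 to 175 bases before the start. Each of these 4 cores was also part of the longer form GTGGGAA, which overlaps it. The letters TGGGAA were not in these 250 bases of either Hes6 window. Of 32851 promoter windows of the same length in the table, 21.6% held the core and 5.42% held the longer form, so the core alone is common. The expression values of the 3 genes shown are given further on.

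Each array set the RNA of a co-culture (Cy3) against a pooled mouse reference RNA sold by Stratagene (Cy5), without dye swaps. A level is the log2 ratio of Cy3 over Cy5, so it sets one probe's values side by side across arrays and says nothing of one gene against another. All replicate 1 arrays lay on slide 1 and all replicate 2 arrays on slide 2. Slide 2 was dimmer, with a median Cy3 signal of 76.5 to 117.2 against 164.7 to 203.6 on slide 1. All 11 osteoblast markers were well above background on all 8 arrays. The median difference over the 33060 probes tested lay between -0.01 and 0.00 in every comparison. Loess within each array centres the ratios near 0, so this median follows from the processing and says nothing of balance between groups. Both DMSO arrays with Jagged1 cells and the replicate 2 array with Jagged1 cells in MRK-003 each held 4 to 18 spots with a local Cy3 background over 200, up to 32904, and vector DMSO replicate 2 held 11, up to 349.5. Correcting the background with normexp, the model used throughout, gave other values for dim probes on the first 3 of these arrays than subtracting each spot's local background, so subtracted values are given beside the main ones for the genes that lead the text. In bulk RNA such as this, fewer cells of a type and less RNA per cell cannot be told apart.

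Hey1 varied more over the arrays than any other member. Its probe, at chr3:8669867-8669926 on mm7, gave a Cy3 signal of 7354 and 3906 in the Jagged1 DMSO cultures (replicates 1 and 2). The vector DMSO cultures gave 457.6 and 245.3, the vector MRK-003 cultures 94.59 and 78.03, and the Jagged1 MRK-003 cultures 137.5 and 84.97. The local background at these spots was 26.0 to 32.0, and the Cy5 signal of the reference was 659.3 to 1612. The Jagged1 DMSO arrays were thus far above all 6 others within each slide, and the 4 MRK-003 arrays were the lowest.

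As levels, Hey1 stood at 3.19 and 2.78 with Jagged1 cells in DMSO, a mean of 2.99 ± 0.29 (SD, n = 2). With vector cells in DMSO it stood at -0.61 and -0.55, with vector cells in MRK-003 at -2.68 and -2.15, and with Jagged1 cells in MRK-003 at -2.11 and -0.81. No group overlapped another, in the order vector MRK-003, Jagged1 MRK-003, vector DMSO and Jagged1 DMSO. The nearest arrays of the lowest groups were only 0.04 apart, and those of Jagged1 MRK-003 and vector DMSO 0.20 apart, less than the SD of 0.92 inside Jagged1 MRK-003. With the local background subtracted, the replicate 2 array of that group read -2.15 in place of -0.81, and the other 7 arrays moved by at most 0.28.

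**Figure D1:**
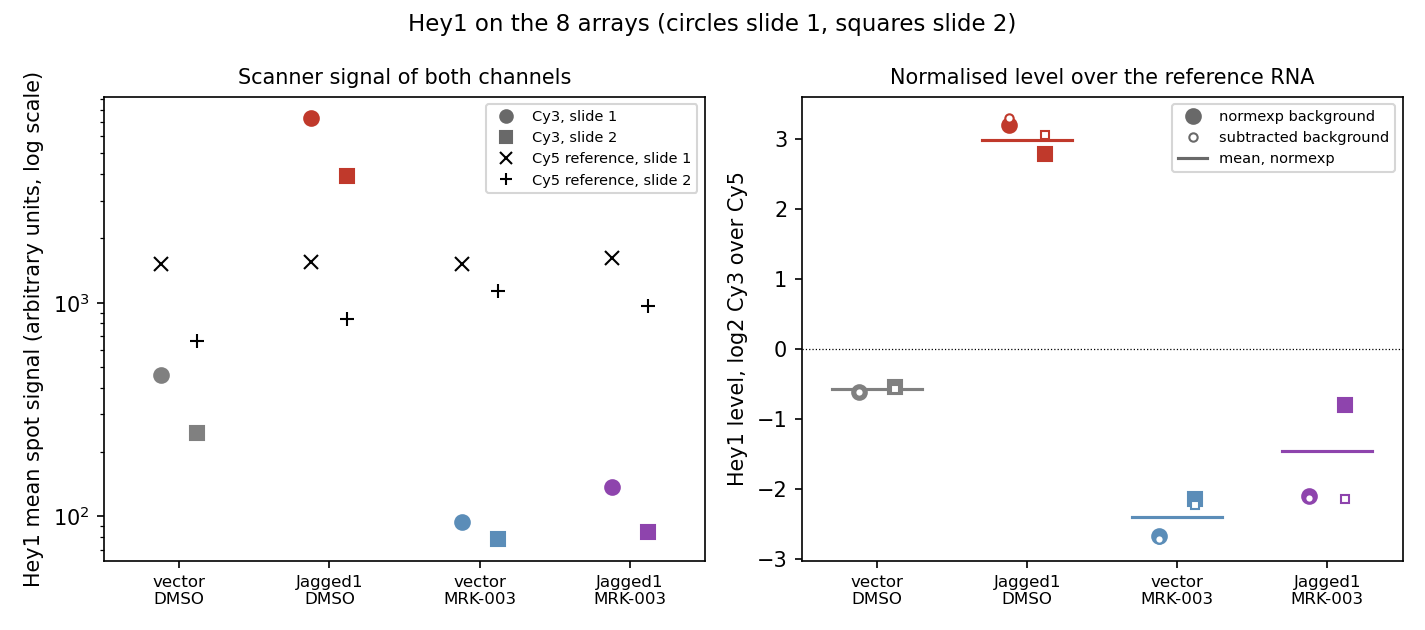
Hey1 on each of the 8 arrays by group, as scanner signal on a log axis (left; filled points Cy3, crosses Cy5 reference) and as log2 Cy3 over Cy5 (right; large filled points with normexp, small open points with subtracted background, lines group means with normexp). The Jagged1 DMSO arrays, at 3.19 and 2.78, lie above all others, and the replicate 2 array of Jagged1 MRK-003 reads -0.81 with normexp and -2.15 with subtraction.

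Hey1 fell with MRK-003 in the cultures with Jagged1 cells. The difference was -4.44 ± 0.43 on the log2 scale (SE, 2 arrays against 2), a 21.8-fold lower level, with an adjusted p of 0.0442 in limma over all 33060 probes. It was the largest difference of any probe in that comparison, at -5.30 on slide 1 and -3.59 on slide 2. With subtracted background it was -5.32 ± 0.18, a 40.1-fold lower level (adjusted p = 0.00053), and with the slide as a block the adjusted p was 0.0144. The call was lost when any array but Jagged1 MRK-003 replicate 2 was left out, with adjusted p between 0.0891 and 0.289 and differences between -4.65 and -3.80. Without that array the difference was -5.09 (adjusted p = 0.0442).

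In DMSO, Hey1 was 3.57 ± 0.43 higher with Jagged1 cells than with vector cells (SE), an 11.8-fold difference and again the largest of all 33060 probes. It did not pass the test (adjusted p = 0.162), although the arrays did not overlap and the difference was 3.81 on slide 1 and 3.33 on slide 2. It passed with the slide as a block (adjusted p = 0.0488) and with subtracted background, where it was 3.78 ± 0.18 (adjusted p = 0.00328). The probe was well above background on all 8 arrays.

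With vector cells, where no Jagged1 was added, MRK-003 cultures had a Hey1 level 1.83 ± 0.43 lower than DMSO cultures (SE), a 3.56-fold difference that ranked first of all probes and did not pass (adjusted p = 1; 0.506 with the slide as a block). The values were -2.06 on slide 1 and -1.60 on slide 2. Under MRK-003, Jagged1 and vector cultures differed by 0.95 ± 0.43, with a 95% interval from -0.09 to 2.00 (adjusted p = 1), and by 0.34 with subtracted background. The Jagged1 difference in DMSO exceeded that in MRK-003 by 2.61 ± 0.61 (the interaction, adjusted p = 1). With subtracted background the interaction was 3.44 (adjusted p = 0.0515), and with the slide as a block as well it passed (adjusted p = 0.0119). Averaged over both kinds of tumour cell, Hey1 fell by 3.14 with MRK-003 (adjusted p = 0.0468). That call held without either Jagged1 MRK-003 array and was lost without any of the other 6 (adjusted p 0.137 to 0.224).

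Hes1, a Notch target in many tissues, showed the next largest spread. Its probe spans 296 bases at chr16:29738743-29739038 on mm7 although it is 60 bases long. Hes1 gave a Cy3 signal of 963.8 and 795.4 with vector cells in DMSO, and of 1669 and 1210 with Jagged1 cells in DMSO. In MRK-003 it gave 346.3 and 257.9 with vector cells and 342.0 and 315.6 with Jagged1 cells. The 4 DMSO arrays were all above the 4 MRK-003 arrays, on each slide and over both.

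The Hes1 level was 1.34 and 1.79 in vector DMSO, 2.03 and 1.79 in Jagged1 DMSO, -0.03 and 0.45 in vector MRK-003, and 0.20 and 0.32 in Jagged1 MRK-003. Vector and Jagged1 groups overlapped within each treatment. With subtracted background they overlapped in MRK-003 but not in DMSO, where vector cultures read 1.35 and 1.82 and Jagged1 cultures 2.22 and 2.29. With Jagged1 cells, MRK-003 cultures were 1.65 ± 0.22 lower (SE), a 3.13-fold difference that ranked 87 of 33060 and missed the threshold (adjusted p = 0.0768). It passed with the slide as a block (adjusted p = 0.0254) and with subtracted background, where the difference was -1.82 (adjusted p = 0.0240). With vector cells the difference was -1.35 ± 0.22 (rank 8 by size, adjusted p = 1). The average over both, -1.50 ± 0.16, had an adjusted p of 0.0522 and of 0.0158 with the slide as a block, and it was -1.60 on slide 1 and -1.40 on slide 2.

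Hes1 and Hey1 differed in what the kind of tumour cell went with. Between Jagged1 and vector cells in DMSO, Hes1 differed by 0.34 ± 0.22, with a 95% interval from -0.19 to 0.88 (adjusted p = 0.692), at 0.69 on slide 1 and 0.00 on slide 2. With subtracted background it was 0.67, and with the slide as a block as well it passed (adjusted p = 0.0399). The interval for Hey1 in the same comparison, 2.52 to 4.62, lay wholly above that for Hes1. The difference between both genes was not itself tested. In MRK-003, Hes1 differed by 0.05 between the tumour cells (interval -0.49 to 0.59).

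**Figure D2:**
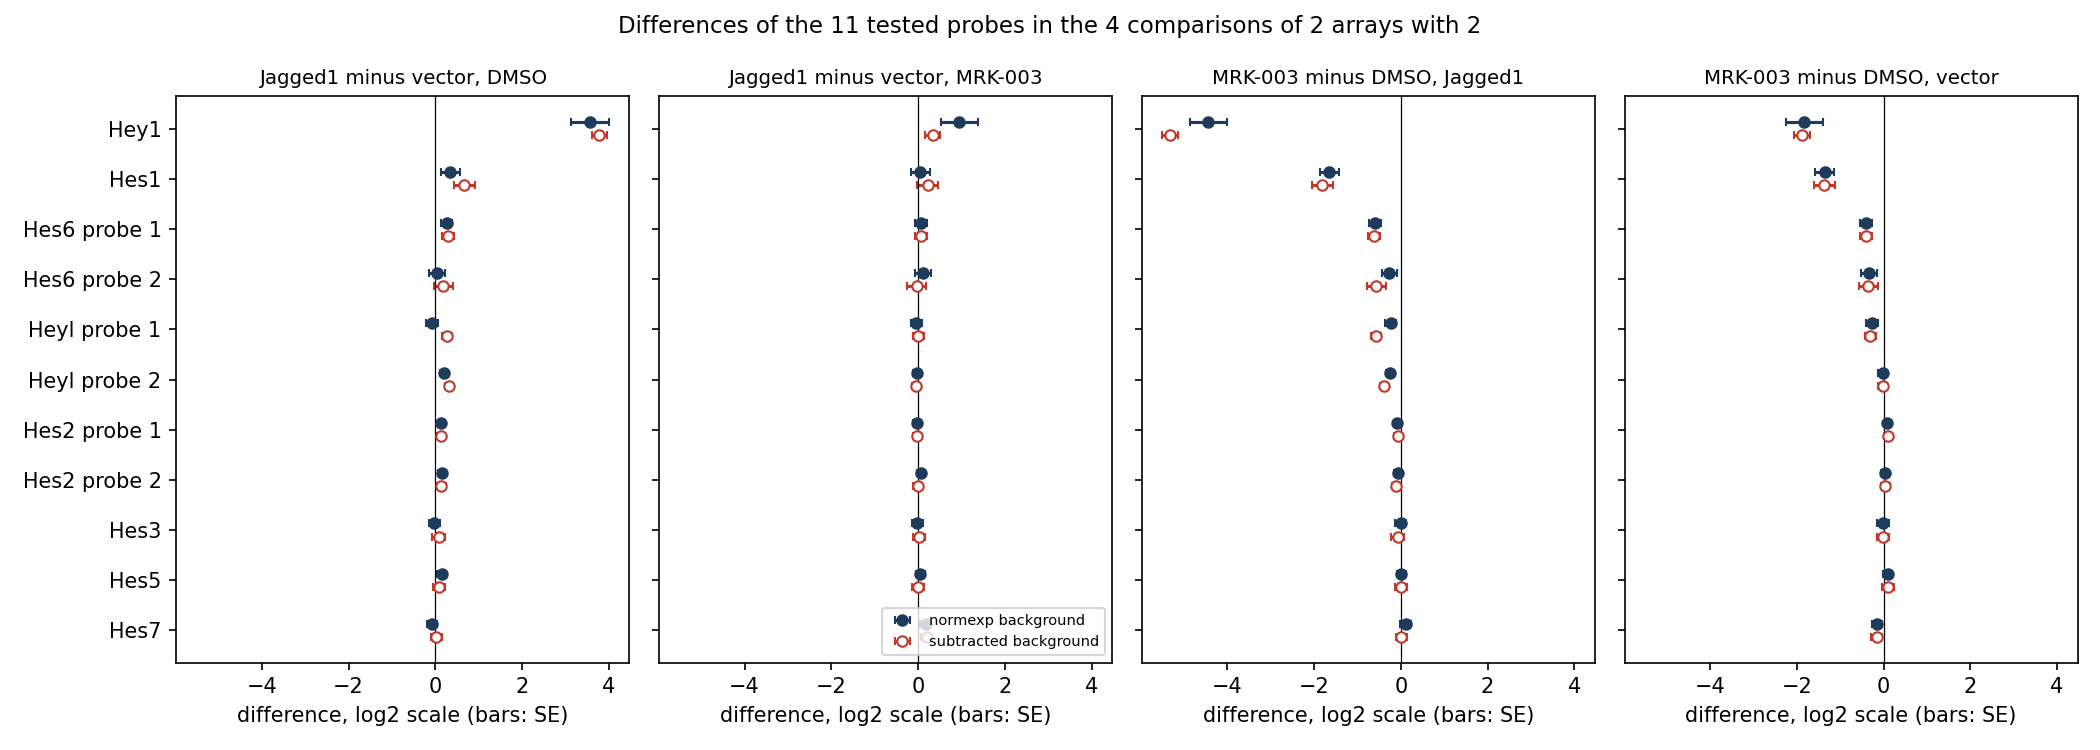
Differences on the log2 scale with their standard errors for the 11 tested probes in the 4 comparisons of 2 arrays with 2, with normexp (filled) and with subtracted background (open). Hey1 stands at 3.57 and -4.44 in the comparisons with Jagged1 DMSO, Hes1 at -1.65 and -1.35 in those of MRK-003, and the other 9 probes lie within 0.60 of 0 with normexp.

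Hes6, the family member known to oppose Hes1, was read by 2 probes. The brighter one, at chr1:91319132-91319191 on mm7, gave a Cy3 signal of 1174 to 3386. Its level was 0.31 and 0.23 in vector DMSO, 0.48 and 0.57 in Jagged1 DMSO, -0.01 and -0.27 in vector MRK-003, and 0.06 and -0.20 in Jagged1 MRK-003. The order of the groups was thus like that of Hes1, on a smaller scale. With Jagged1 cells MRK-003 cultures were 0.59 ± 0.13 lower and with vector cells 0.41 ± 0.13 lower (SE; adjusted p = 0.231 and 1). The second probe, at chr1:91320176-91320235 and dimmer (115.5 to 335.6), had differences of -0.27 and -0.34 in the same order, and none of these passed. The average MRK-003 difference of the brighter probe was -0.50 ± 0.09 (adjusted p = 0.143). With subtracted background and the slide as a block, the brighter probe passed with Jagged1 cells (-0.62, adjusted p = 0.0213) and on average (-0.52, adjusted p = 0.0132). The second probe then had -0.57 with Jagged1 cells (adjusted p = 0.0516) and passed on average (-0.46, adjusted p = 0.0355).

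Heyl, a Hey relative known from vascular smooth muscle as a Notch3 target, was read by probes at chr4:122692891-122692950 and chr4:122694378-122694437 on mm7. The brighter second probe had a level of 0.32 and 0.13 with Jagged1 cells in DMSO, against 0.07 and 0.00 with vector cells in DMSO. It stood at 0.04 and -0.02 in vector MRK-003 and at 0.00 and -0.04 in Jagged1 MRK-003. Jagged1 DMSO was thus the highest group, by 0.19 ± 0.10 over vector DMSO (SE, adjusted p = 0.661; 0.32 with subtracted background), and was 0.24 ± 0.10 above Jagged1 MRK-003 (adjusted p = 0.637). The first probe, with a Cy3 signal of 48.95 to 106.4, disagreed with it on the Jagged1 difference in DMSO, at -0.08, and with subtracted background it gave 0.27. With subtracted background and the slide as a block, both probes were lower in Jagged1 MRK-003 than in Jagged1 DMSO (-0.57 and -0.40, adjusted p = 0.0273 and 0.0330).

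Hes5, whose promoter window held the 2 separate cores shown above, did not follow Hey1. Its level was -0.06 and -0.25 in vector DMSO, 0.03 and -0.05 in Jagged1 DMSO, 0.00 and -0.11 in vector MRK-003, and 0.04 and -0.05 in Jagged1 MRK-003. The difference was 0.15 ± 0.10 for Jagged1 in DMSO and 0.00 ± 0.10 for MRK-003 with Jagged1 cells (SE). Hes7, an oscillating repressor of the segmenting embryo, had a Cy3 signal of only 49.13 to 95.1 and differences of -0.08 and 0.11 in these comparisons. Hey2, the third gene with a core shown, was not tested: its Cy3 signal was 37.21 to 47.78 over a local background of 26.0 to 37.0, and it was well above background on 3 of 8 arrays. Hes2 and Hes3, for which no window was given, lay within 0.17 of 0 (Hes2, both probes) and within 0.03 (Hes3) in the same 2 comparisons, and none passed.

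**Figure D3:**
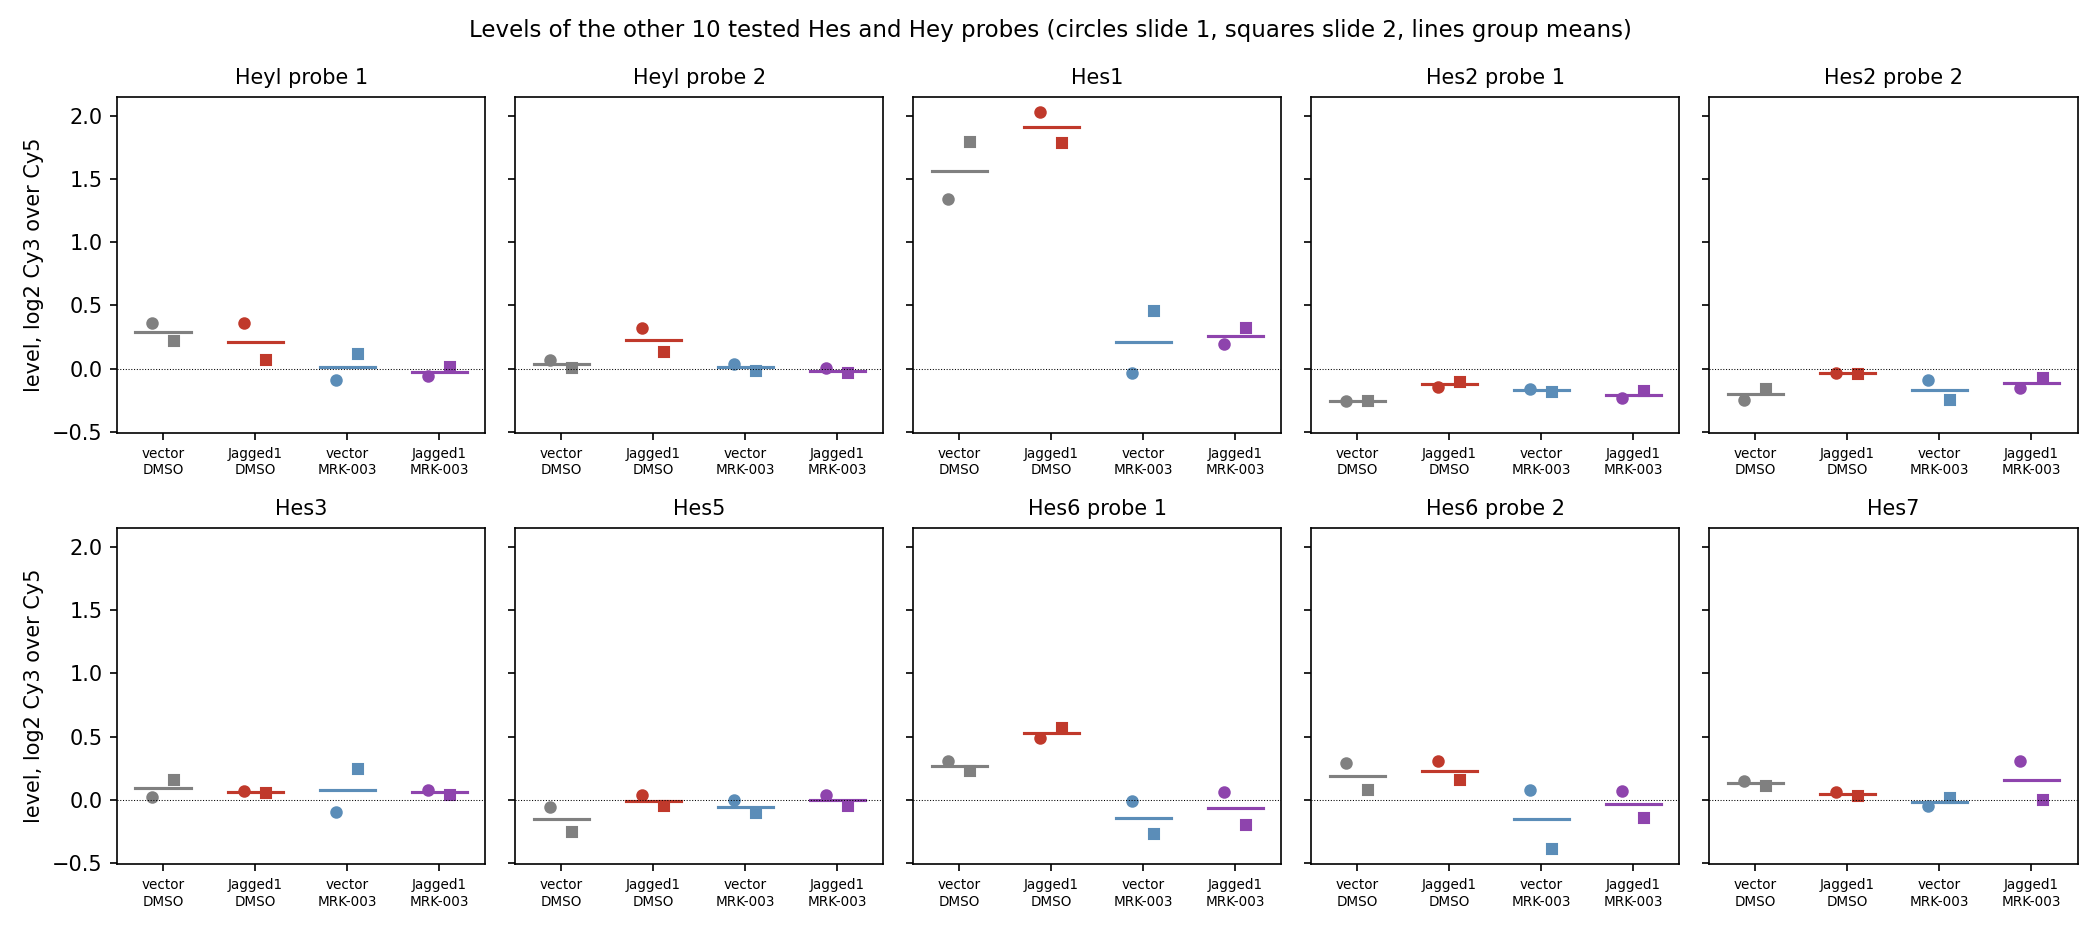
Levels (log2 Cy3 over Cy5, normexp) of the other 10 tested probes on each array by group, with circles for slide 1, squares for slide 2 and lines for group means. Hes1 falls into a DMSO set at 1.34 to 2.03 and an MRK-003 set at -0.03 to 0.45, Hes6 shows a like but smaller step, and the rest stay between -0.26 and 0.36.

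Over all 11 tested probes, 1 was called lower with MRK-003 beside Jagged1 cells, Hey1, where 0.112% of all 33060 probes were called lower and 0.185% in either direction. The median of the 11 was -0.24 against 0.00 over all probes. In DMSO none of the 11 was called for Jagged1 (0.00907% of all probes), with a median of 0.15. No probe of the array was called by limma for Jagged1 in MRK-003, for MRK-003 with vector cells or for the interaction (0% each), while 239, 1062 and 597 probes had an unadjusted p under 0.05. For the average effect of MRK-003, 1 of 11 was called (0.109% of all probes).
With subtracted background and the slide as a block the counts were 2 of 11 for Jagged1 in DMSO (2.98% of all probes), 5 of 11 for MRK-003 with Jagged1 cells (8.57%) and 1 of 11 for the interaction (0.257%). Arrays did not overlap for 8 of 11 probes that were lower with MRK-003 beside Jagged1 cells, against 15.1% of all probes, and for 6 of 11 that were lower beside vector cells, against 12.7%. For Jagged1 in DMSO, 6 of 11 were higher without overlap (22.5% of all probes). These probes include pairs for 1 gene and were not independent.

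By the rule for likeness, the 5 genes whose levels followed Hey1 most closely over the 8 arrays were Rnf125 (Pearson r = 0.99), Sik1 (0.99), Septin4 (0.98), Acaa2 (0.98) and Cdh15 (0.98), out of 2840 genes that varied enough. The arrays share slides, groups and reference, so these values are a description. Cdh15, a cadherin of the muscle lineage, had levels of 2.87 and 2.33 in Jagged1 DMSO and between -0.80 and 0.21 on the other 6 arrays. Its difference was 2.67 for Jagged1 in DMSO (adjusted p = 0.138) and -3.09 for MRK-003 with Jagged1 cells (adjusted p = 0.0415). Rnf125, a ubiquitin ligase, and Acaa2, a mitochondrial thiolase, fell in the latter comparison by 1.24 and 1.41 (adjusted p = 0.0495 and 0.0442). Sik1 and Septin4 had differences of -0.73 and -1.02 there that did not pass with normexp. The calls of Cdh15, Rnf125 and Acaa2 were each lost whichever array was left out. With subtracted background Sik1 (-1.39, adjusted p = 0.0176) and Septin4 (-1.50, adjusted p = 0.0054) passed for MRK-003 with Jagged1 cells, as did 1.56% of all probes. Cdh15 (2.99, adjusted p = 0.00914), Rnf125 (1.20, 0.0189) and Septin4 (1.07, 0.0389) then passed for Jagged1 in DMSO, as did 0.151% of all probes. Sik1 and Acaa2 passed there only with the slide as a block as well (adjusted p = 0.0329 and 0.0140). By likeness with subtracted background, Septin4 ranked first and Sik1 ranked 76. Closest to Hes1 were Acrbp (0.98), Gramd1a (0.98), Plcd1 (0.98), Mex3a (0.97) and Sulf1 (0.97), and closest to the brighter Heyl probe were Gpbar1 (0.98), Apbb2 (0.97), Ggt5 (0.97), Klhl30 (0.97) and Fbn1 (0.96). None of these 10 passed in either comparison.

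The summed Cy3 signal of 5 muscle markers was highest in Jagged1 DMSO, as Hey1 was. It was 5720 and 2522 there against 428.5 to 2093 on the other arrays. Beside vector cells it was 2093 and 428.5 in DMSO and 2080 and 757 in MRK-003, where Hey1 was lower. Cdh15, named above as close to Hey1, alone had a Cy3 signal of 3988 and 1923 in Jagged1 DMSO, most of the sum there. Of the others, only Des was also highest there on both slides, at 138.0 and 101.1, and Pax7 was so on slide 2 only. Myod1 had 779.2 and 296.6 there against 866.2 and 351.2 in vector MRK-003. Myog had 499.0 and 167.0 against 567.1 and 233.6. Myod1, Myog and Pax7 had levels in Jagged1 DMSO within 0.53 of those in vector DMSO. Des, the intermediate filament protein of muscle, had levels of -1.18 and -0.42 in Jagged1 DMSO against -1.84 and -1.48 in vector DMSO (-1.52 and -1.21 against -1.90 and -1.59 with subtracted background), a difference of 0.86 that did not pass (adjusted p = 0.680). The 11 epithelial markers, a list for tumour cells, summed to 4312 and 2118 in Jagged1 DMSO, 3559 and 1765 in vector DMSO, 4630 and 2072 in vector MRK-003 and 3532 and 2454 in Jagged1 MRK-003. Cdh1, a defining marker among them, was well above background on 2 of 8 arrays. All 9 epithelial markers tested were higher in Jagged1 DMSO than in vector DMSO (median 0.68, or 0.18 with subtracted background) and none was called. The 6 macrophage markers did likewise (median 0.80, or 0.23). Of the 11 osteoblast markers, 4 were higher in Jagged1 DMSO than in vector DMSO (median -0.41, or -0.11 with subtracted background). With MRK-003 beside Jagged1 cells, 8 of the 11 were higher than in DMSO (median 0.25, or 0.16). No osteoblast marker was called in these 2 comparisons. The part of any of these markers in the Hey1 difference was not tested.

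Among other genes of the pathway, 67 of 69 listed were tested. Each was read by its brightest tested probe. Some had more tested probes, such as Jag1 and Notch1 with 2 each and Dtx4 with 3, and the values of those other probes are not given. Of the 5 ligands tested, none was called. Jag1, the ligand overexpressed in the tumour cells, had levels of 3.22 and 3.01 in Jagged1 DMSO, 2.15 and 1.94 in vector DMSO, 1.83 and 2.01 in vector MRK-003, and 1.99 and 1.80 in Jagged1 MRK-003. Both Jagged1 DMSO arrays were above the 6 others, by 1.07 ± 0.14 over vector DMSO (SE, adjusted p = 0.181; 0.0224 with subtracted background). In MRK-003 the arrays of both kinds of tumour cell overlapped. The difference for MRK-003 with Jagged1 cells was -1.22 ± 0.14 (adjusted p = 0.0562; 0.0110 with subtracted background). Whether the probe reads the overexpressed transcript is not stated.

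Of the 4 receptors, none was called. Notch3 had levels of -0.26 and -0.33 in Jagged1 DMSO and between -2.51 and -1.47 on the other 6 arrays. It was 1.66 ± 0.31 higher with Jagged1 in DMSO (SE, adjusted p = 0.301; 0.0150 with subtracted background), and its difference for MRK-003 with Jagged1 cells was -1.67 ± 0.31 (adjusted p = 0.149; 0.00257 with subtracted background). Notch1 differed by 0.44 and -1.09 in these comparisons (adjusted p = 0.747 and 0.559; 0.228 and 0.0435 with the slide as a block). With subtracted background these were 0.89 and -1.44 (adjusted p = 0.452 and 0.0608), and with the slide as a block as well both passed (adjusted p = 0.0129 and 0.000974). Of 8 genes of receptor cleavage, 7 genes for Rbpj and its coactivators and 13 corepressors, none was called in either comparison. With subtracted background and the slide as a block, the coactivator Kat2b passed in both (-0.56 and 0.56, adjusted p = 0.0400 and 0.0206). The corepressors Tle4 (1.81, adjusted p = 0.00881) and Hdac1 (0.42, adjusted p = 0.0400) then passed for MRK-003 with Jagged1 cells. In that setting 2.98% and 8.57% of all probes were called in the 2 comparisons.

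Among 13 modulators and feedback genes, Dtx4, a Deltex-family ubiquitin ligase, rose with Jagged1 in DMSO by 1.70 ± 0.10 (SE, adjusted p = 0.0374) and fell by 3.05 ± 0.10 with MRK-003 beside Jagged1 cells (adjusted p = 0.00245). Its levels were 2.44 and 2.23 in Jagged1 DMSO, 0.61 and 0.66 in vector DMSO, and -0.88 to -0.65 on the 4 MRK-003 arrays, the same order of treatments as Hey1. The first call was lost whichever array was left out (adjusted p 0.0720 to 0.606) and the second without Jagged1 DMSO replicate 1 (adjusted p = 0.0633). Beside vector cells the Dtx4 difference for MRK-003 was -1.48 ± 0.10 (adjusted p = 0.250). With subtracted background and the slide as a block it passed (-1.49, adjusted p = 0.0459), the only 1 of all 33060 probes called there. Nrarp, a feedback inhibitor of Notch, was 0.42 ± 0.13 higher with Jagged1 in DMSO (adjusted p = 0.549) and 1.04 higher with subtracted background (adjusted p = 0.0322). With MRK-003 beside Jagged1 cells its difference was -0.31 (adjusted p = 0.694), and -0.95 with subtracted background (adjusted p = 0.0170). With processed signals it was -3.04 (adjusted p = 0.0409), so its size changed with the processing. The Nrarp probe was well above background on only 4 of 8 arrays.

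Among 10 helix-loop-helix partners and Id proteins, Twist1, a mesenchymal factor that restrains osteoblast maturation, rose with MRK-003 beside Jagged1 cells by 1.15 ± 0.10 (SE, adjusted p = 0.0360). Its levels ran opposite to those of Hey1, at 0.08 on both Jagged1 DMSO arrays, 0.83 and 0.93 in vector DMSO and 1.21 to 1.42 in MRK-003. The call was lost whichever array was left out (adjusted p 0.0767 to 0.289). Tcf4, a partner of such proteins, had a difference of 0.67 (adjusted p = 0.135, and 0.0441 with subtracted background). Twist2 went the other way, at 1.29 for Jagged1 in DMSO and -0.59 for MRK-003 with Jagged1 cells, and did not pass. With subtracted background and the slide as a block it passed in both (0.79 and -0.62, adjusted p = 0.0141 and 0.0153). In that setting 3 of the 10 were called higher and 3 lower with MRK-003 beside Jagged1 cells (5.09% and 3.48% of all probes). Of the 4 osteoblast factors that Hes or Hey are known to bind or act on, none was called. Runx2 differed by -0.41 for Jagged1 in DMSO and by 0.77 for MRK-003 with Jagged1 cells (adjusted p = 0.670 and 0.355). For MRK-003 with Jagged1 cells, 2 of the 4 were called higher under subtraction with the block (5.09% of all probes). Runx2 was 1 of them (0.83, adjusted p = 0.0381), and none of the 4 was called for Jagged1 in DMSO. The 67 genes had a median of 0.04 and -0.03 in these comparisons, near that of all probes. Both comparisons share the Jagged1 DMSO arrays.

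**Figure D4:**
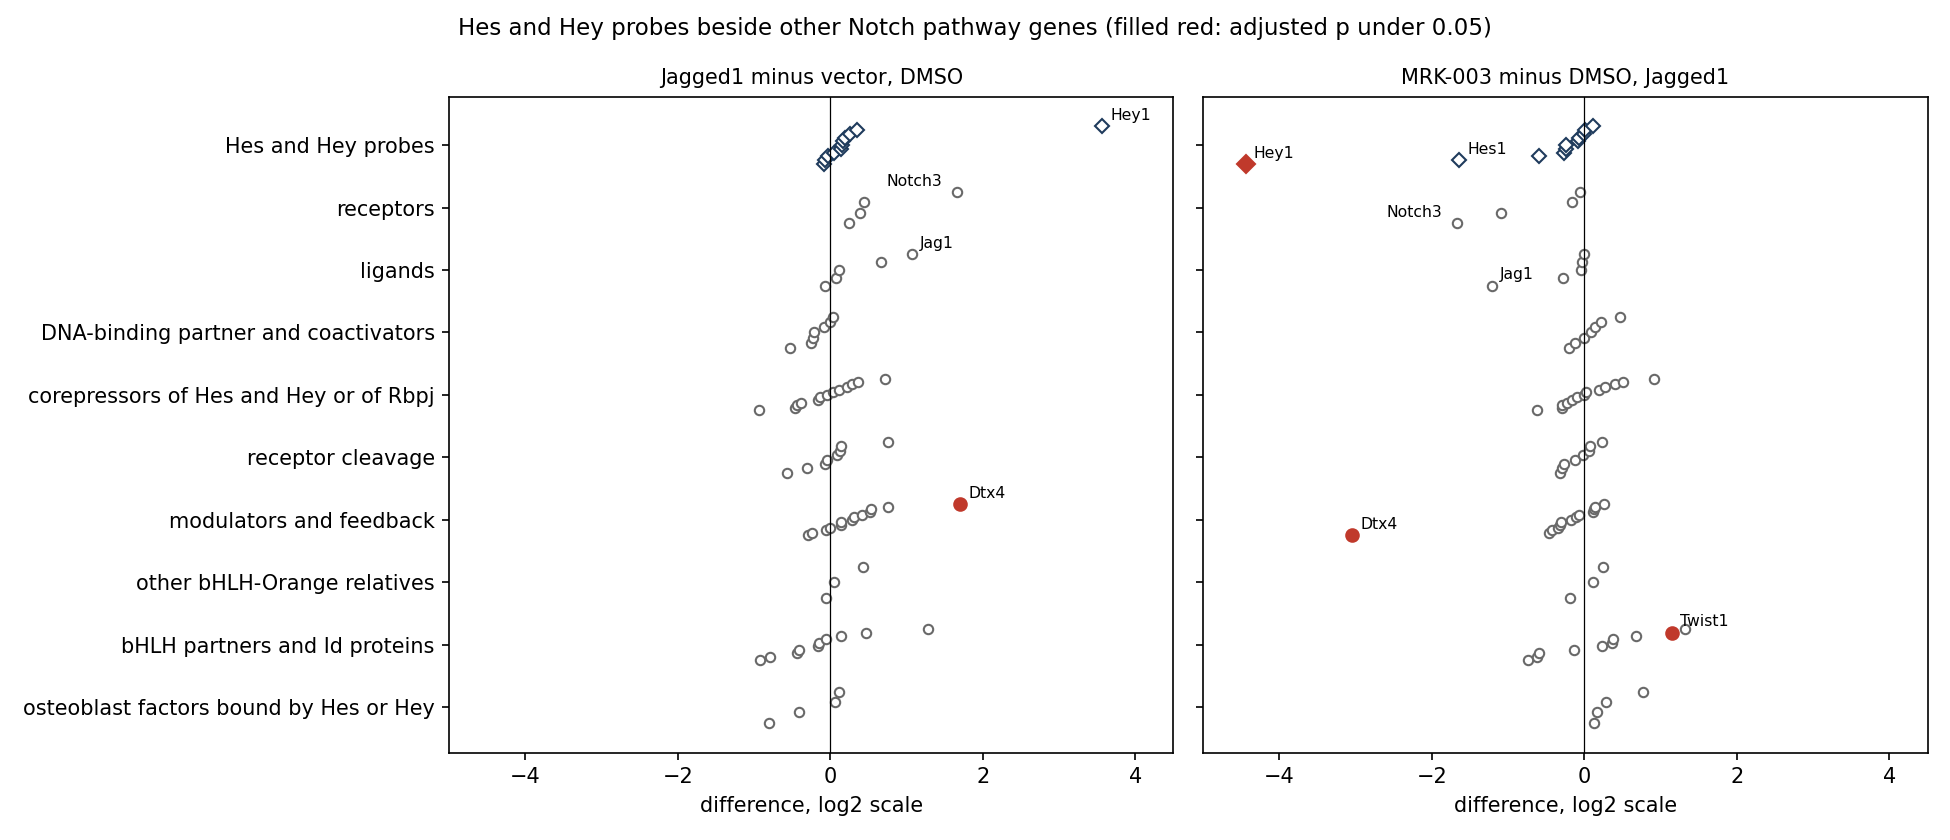
Differences on the log2 scale of the 11 Hes and Hey probes (diamonds) and of 67 other Notch pathway genes by role (circles, 1 probe a gene) for Jagged1 in DMSO (left) and MRK-003 with Jagged1 cells (right), filled red where the adjusted p is under 0.05, with names for large differences. Hey1 lies farthest out in both panels, at 3.57 and -4.44, followed by Dtx4 at 1.70 and -3.05.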

How the data were processed

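Agilent mouse arrays of 8 co-cultures (Cy3) against Universal Mouse Reference RNA (Cy5) were used. The labels' protocols give 175 ng of total RNA per labelling. Per the file headers, the authors used Feature Extraction 9.5.3.1 (Agilent), and probe positions are on mm7. The deposited intensity columns used were the mean signal and median local background of each channel, with no normalization, and the deposited processed signals. The deposited log2 value table equalled the log2 ratio of the processed signals, Cy3 over Cy5, plus 1 constant per array (100% of spots within 0.02), with column medians of 0.1247 and 0.2033 (vector DMSO), 0.1563 and 0.1815 (Jagged1 DMSO), 0.1249 and 0.1697 (vector MRK-003), and 0.1761 and 0.167 (Jagged1 MRK-003).

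The background was corrected with normexp (offset 50) per channel and the ratio with loess within each array (control spots at weight 0). Outlier spots were left out (303 probes) and spots of a probe averaged. Probes whose Cy3 signal did not clear background on both arrays of any group were left out (7811). Group means were fitted over the 8 arrays in limma 3.58.1 (R 4.3.3), and p-values were adjusted (Benjamini-Hochberg) over the 33060 remaining probes in each of 6 comparisons. The fit was tested on simulated data. An exact permutation test of 2 arrays against 2 cannot go below 0.333.

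Replicate numbers coincide with slides, per the file headers. Deviations of same-numbered arrays correlated between every pair of groups (r 0.38 to 0.75, or 0.35 to 0.84 with subtracted background), so the slide was tried as a block. Between Jagged1 DMSO and Jagged1 MRK-003, r was 0.75 with normexp and 0.35 with subtracted background. The other alternatives were subtraction of the local background floored at 0.5 (offset 50), processed signals, median centring, no filter on dim probes, 1 probe per gene, and leaving out each array. Likeness was Pearson's r over 8 arrays with a gene's brightest probe and an SD of at least 0.3 (5 genes each for Hey1, Heyl and Hes1). Pathway genes were named where they passed, or up to 3 a role by smallest p. The members and lists were chosen with earlier results of these data known.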

Additional observations from a re-analysis of the deposited data

How the results depend on the processing

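The number of probes called depended on the setting more than the sizes of the Hey1 and Hes1 differences did. For Jagged1 in DMSO, 3 probes were called, against 50 with subtracted background, 14 with processed signals, 0 with median centring, 76 with the replicate block, 986 with subtraction and the block, and 0 to 1 with 1 array left out. For MRK-003 with Jagged1 cells, 61 were called, against 516, 249, 0, 484 and 2834 in the same order, and 0 to 10 with 1 array left out. For the average MRK-003 effect, 36 were called, against 424, 190, 0, 555 and 2599, 70 with 1 probe per gene, and 0 to 17 with 1 array left out. With subtraction and the block, 1 probe was called for MRK-003 with vector cells and 85 for the interaction, where there were 0; with 1 array left out these stayed at 0, and Jagged1 in MRK-003 had 0 to 1.

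Hey1 for Jagged1 in DMSO passed with subtracted background (3.78), processed signals (3.81), the block (3.57) and both (3.78), and ran from 3.36 to 3.77 with 1 array left out. Hey1 for MRK-003 with Jagged1 cells no longer passed with median centring (-4.34) and ran from -5.09 to -3.80 with 1 array left out. With processed signals it was larger, at -5.89, as were its average MRK-003 effect (-4.20) and its difference for MRK-003 with vector cells (-2.52). Its average MRK-003 effect no longer passed with median centring (-3.09) or without the dim filter (-3.14), and ran from -3.46 to -2.81. Its interaction passed with subtraction and the block (3.44) and ran from 1.97 to 3.26. With 1 array left out, Hey1 ran from 0.31 to 1.60 for Jagged1 in MRK-003 and from -2.10 to -1.57 for MRK-003 with vector cells.

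Hes1 for MRK-003 with Jagged1 cells passed with subtraction (-1.82), the block (-1.65) and both (-1.82), with -1.77 to -1.53 with 1 array left out. Its average MRK-003 effect passed with subtraction (-1.59), processed signals (-1.67), 1 probe per gene (-1.50), the block (-1.50) and both (-1.59), with -1.62 to -1.38 with 1 array left out. For Jagged1 in DMSO it passed with subtraction and the block (0.67), with 0.12 to 0.57 with 1 array left out. For Jagged1 in MRK-003 it turned to -0.038 with median centring and ran from -0.19 to 0.29. It ran from -1.60 to -1.11 for MRK-003 with vector cells and from 0.05 to 0.54 for the interaction. The cause of these changes was not tested.

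Small differences that did not pass turned sign. For Jagged1 in DMSO, with subtracted background (with and without the block) Heyl probe 1 was 0.27, Hes3 0.075 and Hes7 0.021, with processed signals Heyl probe 1 was 0.27 and Hes3 0.11, and with median centring Hes2 probe 1 was -0.11, Hes3 0.10, Hes6 probe 1 -0.13 and Hes7 0.0064. For MRK-003 with Jagged1 cells, Hes5 was -0.0067 and Hes7 -0.028 with processed signals, and Hes5 was -0.064 with median centring. With 1 array left out, Heyl probe 1 ran from -0.22 to 0.070, Hes3 from -0.092 to 0.038 and Hes6 probe 2 from -0.065 to 0.15 for Jagged1 in DMSO, and Hes3 from -0.029 to 0.017, Hes5 from -0.040 to 0.048 and Hes7 from -0.046 to 0.26 for MRK-003 with Jagged1 cells. Among 47 further differences that are not printed, 30 of 321 values under the other settings and 29 of 376 without an array turned sign, none larger than 0.43 in size. Of the same values, 33 of the 321 gained a call and none lost one, while none of the 376 did either. The number of arrays, and the dim signals of Hey2, Hes7 and Heyl probe 1, limit the precision.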
